A study of Mus musculus with 8 samples.

Results

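The regions described here are 100 kb windows of the mouse genome whose mean methylation over 8 liver libraries was below 65%. The mean used CpG rows in 1 kb windows with fewer than 40 rows, which leaves out CpG islands, and a window needed 300 or more such rows. Of 18301 windows with enough rows on chromosomes 1 to 5 and 10 to 19, 700 met the rule (3.82%, 70 Mb of 1830.1 Mb). Merging windows that adjoin gave 398 domains. Of these, 303 were single windows, 95 held 2 or more, 54 were 300 kb or longer, and the longest was 2900 kb. The regions were chosen by their measured levels, averaged over all 8 libraries, and their widths follow from that choice, so both are given as a description without a test. The difference between diets was not used by the rule.

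Livers of male C57BL/6J mice, an inbred laboratory strain, all of wild-type genotype, were examined by whole-genome bisulfite sequencing. The series text states that mice bought at 8 weeks of age received either normal chow or food rich in fat, cholesterol and fructose for 28 weeks. Sample titles give 4 NASH libraries (nonalcoholic steatohepatitis, fatty liver with inflammation) and 4 WT libraries (normal diet). The treatment field is crossed against the titles, and if it were right every direction below would be reversed. Whether each library is a separate mouse is not stated, and p-values then measure only the spread between libraries. Whole liver mixes hepatocytes with other cells, so a change in the share of a cell type and a change within cells cannot be told apart. The deposited table gives a percent per cytosine without counts of reads, and the depth of every level is therefore unknown. Chromosome 5 was read up to position 117089998, and no window of chromosomes 6 to 9 or of the sex chromosomes was analysed here.

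Most CpGs of a mammalian genome are methylated, and bisulfite treatment converts only the unmethylated cytosines. Partially methylated domains are long stretches, mostly poor in genes and late in replication, where methylation is intermediate. They are known from cultured cells, placenta and tumours, and are shallow or lacking in many normal tissues. Genes that a cell type uses heavily, and valleys around genes of developmental transcription factors, also have low methylation over long distances.

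The 4 promoters below are examples from regions that met the rule, and do not stand for every kind of them. Fgg (fibrinogen gamma chain) and Hnf4a (a hepatocyte transcription factor) lie in windows with few rows at 0 in all 8 libraries. Zfp967 and Zfp973 (zinc finger proteins) share a domain in which most rows were at 0 in every library. They were chosen after their values were seen. For Fgg and Hnf4a the RefSeq promoter with the lowest start is printed, and any other promoter of these genes is not shown. Which promoter the liver uses was not tested. Sequences are those of RefSeq, build GRCm38.p6 (the assembly behind mm10), each 300 bases long and mostly before the start. Capitals mark CpGs, and 95.1% of the 22668 RefSeq promoters in tested windows held at least 1.
Fgg promoter, chr3:83007474-83007773, plus strand: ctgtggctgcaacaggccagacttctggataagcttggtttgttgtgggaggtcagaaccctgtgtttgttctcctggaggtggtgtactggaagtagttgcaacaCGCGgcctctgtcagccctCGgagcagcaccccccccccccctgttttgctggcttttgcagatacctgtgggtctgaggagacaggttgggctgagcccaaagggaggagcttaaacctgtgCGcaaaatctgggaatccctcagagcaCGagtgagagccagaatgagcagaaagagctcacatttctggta
Hnf4a promoter, chr2:163506607-163506906, plus strand: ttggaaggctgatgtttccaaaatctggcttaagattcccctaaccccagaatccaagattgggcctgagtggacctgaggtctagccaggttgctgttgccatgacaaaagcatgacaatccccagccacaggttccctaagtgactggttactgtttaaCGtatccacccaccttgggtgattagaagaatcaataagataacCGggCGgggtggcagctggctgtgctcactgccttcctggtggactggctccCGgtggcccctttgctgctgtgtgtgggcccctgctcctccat
Zfp967 promoter, chr2:176520754-176521053, plus strand: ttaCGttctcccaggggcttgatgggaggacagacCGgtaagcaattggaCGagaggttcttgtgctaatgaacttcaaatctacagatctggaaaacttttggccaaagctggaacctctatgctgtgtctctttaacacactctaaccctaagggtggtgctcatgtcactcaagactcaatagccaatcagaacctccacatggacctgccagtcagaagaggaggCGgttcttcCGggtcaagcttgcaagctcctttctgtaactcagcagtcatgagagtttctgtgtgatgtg
Zfp973 promoter, chr2:176670272-176670571, plus strand: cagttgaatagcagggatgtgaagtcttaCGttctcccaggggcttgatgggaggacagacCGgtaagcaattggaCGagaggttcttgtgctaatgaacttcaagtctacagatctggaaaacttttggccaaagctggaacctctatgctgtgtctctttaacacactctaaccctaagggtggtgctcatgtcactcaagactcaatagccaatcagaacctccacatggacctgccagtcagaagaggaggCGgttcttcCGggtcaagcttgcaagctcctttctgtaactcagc

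All 5 CpGs of the Zfp967 promoter and all 5 of the Zfp973 promoter were listed at 0 in all 8 libraries. Shifted by 26 bases, the promoters matched at 273 of 274 aligned bases, and every 30-base stretch of each occurs in another RefSeq promoter. The 5 CpGs of the Fgg promoter averaged 19.8%, 28.3%, 34.9% and 34.7% in NASH libraries 1 to 4 and 7.50%, 22.0%, 3.33% and 0% in WT libraries 1 to 4. NASH library 1 lay below WT library 2, so the groups overlapped. The 4 CpGs of the Hnf4a promoter averaged 21.6%, 14.8%, 64.7% and 56.7% in NASH and 32.5%, 19.0%, 29.1% and 8.33% in WT libraries, with wide overlap. Neither Fgg nor Hnf4a shared a 30-base stretch of its promoter with another RefSeq promoter.

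For most of the 700 windows the table could not settle the label of partially methylated large domains. Many rows were listed at exactly 0 in all 8 libraries, and the table cannot tell an unmethylated cytosine from a position without usable reads. In 154 windows (22.0%) such all-zero rows made up 50% or more, with a median share of 87.5% and a median level of 3.51%. Levels there were mostly not intermediate, with 88.7% of 1 kb windows below 20%. In 454 windows (64.9%) all-zero rows made up 5% to 50%, with a median share of 13.1% and a median level of 59.9%. Of the 1 kb windows of this middle class, 42.4% lay between 20% and 70% methylation. Only 92 windows (13.1%) had under 5% all-zero rows, with a median share of 1.95% and a median level of 62.6%. These 3 classes were set after the values were seen. The 17601 other windows had a median share of 0.355% and a median level of 78.2%, and 99% of them had a share below 9.27%. Rows at 0 in at least 1 library were more common. Pooled, they made up 95.2%, 43.0% and 32.1% of rows in the 3 classes, in the order given, and 12.9% in the other windows.

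**Figure D1:**
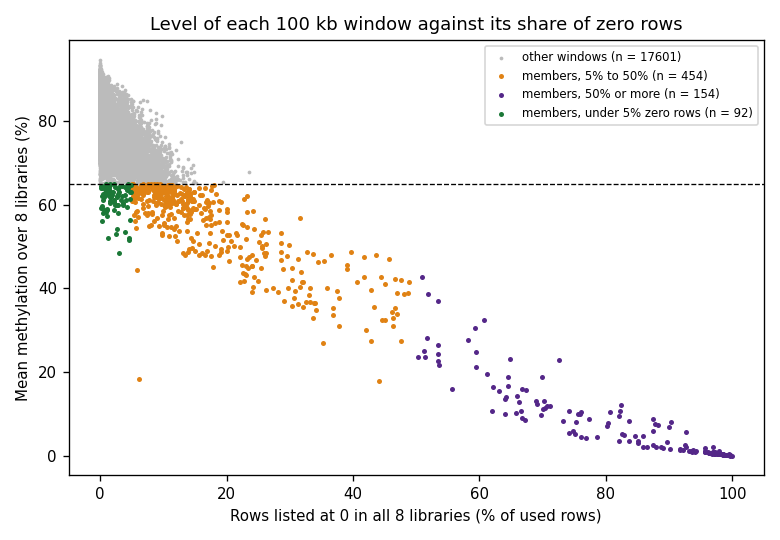
Each point is a 100 kb window: the x axis is the percentage of its used rows listed at 0 in all 8 libraries and the y axis its mean methylation in percent, with the 65% threshold dashed. The 154 members with 50% or more all-zero rows form a tail that falls to a level of 0, while the 92 members under 5% lie just below the threshold.

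All-zero rows went with sequence that occurs more than once among the chromosomes and contigs of the table. A CpG was counted as copied where its run of 16 CpGs, with the same 15 distances between them, occurs elsewhere in the table, a measure that uses positions and no level. The median window held 93.9% copied rows in the class with most all-zero rows, 21.2% in the middle class, and 0 in the class under 5% and in the other windows. Pooled over windows, 85.7%, 23.8% and 2.21% of rows were copied in these classes, and 2.03% in the other windows. Promoters gave the same order: 162 of 289 (56.1%), 272 of 586 (46.4%) and 38 of 263 (14.4%) shared at least 50% of their 30-base stretches with other promoters, against 1877 of 21530 (8.72%) in the other windows. Promoters of different genes that overlap in position also counted as sharing, so these counts need not be of separate places. The 85 contigs of the table, sequences listed apart from the chromosomes, had a mean of 10.6% and 81.0% all-zero rows. Of their CpGs, 51.7% lay in spacing also found on the analysed chromosomes. Pooled rows with a copy on a contig were 57.6%, 9.75% and 0.606% in the same order of classes, and 1.05% in the other windows. Whether a contig copy is a second place in the genome or the same place listed again was not tested. Whether missing reads lower the levels of these classes was not tested either, since the table holds no depth.

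Domains of 300 kb or longer were mostly of this kind. Their median share of all-zero rows was 45.2%, and 1 of 54 was under 5%, the Hoxb cluster on chromosome 11. The widest lay at the start of chromosome 14 (mm10 3000001 to 5900000, 29 windows), held 45 protein-coding genes mostly known only by Gm numbers, and had 40.3% all-zero rows. It was at 31.4%, 32.2%, 32.8% and 31.3% in NASH and 32.7%, 32.0%, 32.7% and 33.2% in WT libraries. The groups overlapped, and the difference of -0.704 points was not called (limma adjusted p = 0.402).

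The second widest, on chromosome 5 (93400001 to 95900000, 25 windows), holds a cluster of Pramel genes, a family expressed in germ cells and early embryos. It was at 29.03% ± 0.336 in NASH and 29.4% ± 0.691 in WT libraries (SD, n = 4). The others among the 10 widest lay on chromosome 14 (41900001 to 43700000, 51.3%, and 6000001 to 6900000, 51.8%), chromosome 4 (41700001 to 42900000, 11.3%, and 121700001 to 122600000, 17.7%) and chromosome 17 (54700001 to 55800000, 5.04%). Further ones were on chromosome 5 (10900001 to 11900000, 46.0%), chromosome 1 (22100001 to 22900000, 8.52%, with Rims1, a presynaptic scaffold gene) and chromosome 2 (176400001 to 177200000, 21.6%, with Zfp967 and Zfp973). All-zero rows ranged from 13.9% to 87.5% over the 10 widest, and none was called between diets (limma adjusted p from 0.237 to 0.910). Rows with a copy on a contig ranged from 0% in the domain with Zfp967 to 94.1% in that on chromosome 17.

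**Figure D2:**
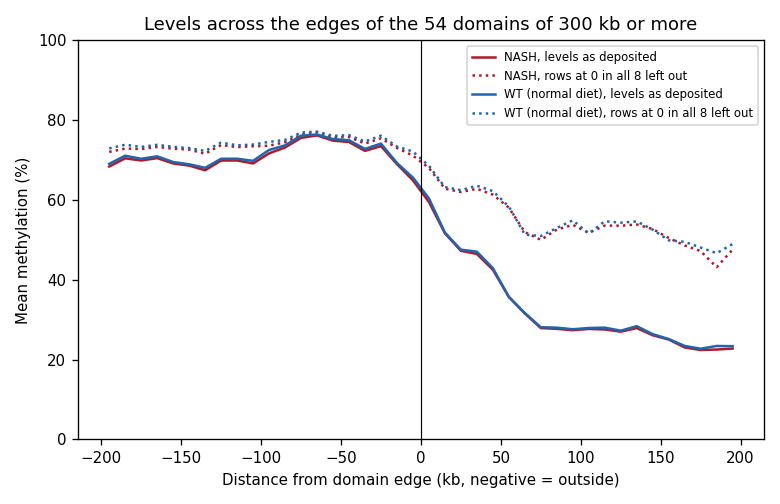
Mean methylation in percent in 10 kb bins by distance from the edges of the 54 domains of 300 kb or longer (negative is outside), for 4 NASH and 4 WT libraries, as deposited (solid) and without all-zero rows (dotted). In NASH libraries the level falls from 75.5% at 75 kb outside to 26.1% at 145 kb inside as deposited, and to 52.7% without all-zero rows.

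Across the edges of these 54 domains the level fell from 75.5% in NASH and 76.1% in WT libraries at 75 kb outside to 26.1% and 26.4% at 145 kb inside. All-zero rows rose over the same distance from 1.09% to 55.9% of rows. Without them the inner level was 52.7% in NASH and 52.6% in WT libraries, and the outer level 76.3% and 76.9%. The step lies where the rule drew the edges, so its presence is no finding.

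The lowest domain, on chromosome 19 (6200001 to 6700000), held Men1 (menin, a tumour suppressor), Sf1 (a splicing factor) and Pygm (muscle glycogen phosphorylase), and was at 0.154% with 99.1% all-zero rows. Of its rows 99.3% were copied, and the same 99.3% had a copy on a contig. The next were on chromosome 11 (88000001 to 88300000, with the splicing factor gene Srsf1) at 0.296% and chromosome 1 (191800001 to 192100000, with the mitotic kinase gene Nek2) at 0.793%. Their all-zero rows made up 98.6% and 97.3%, and 100% and 98.9% of their rows had a copy on a contig.

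The rule was applied again with such rows left out, an alternative chosen after the data were seen. Without all-zero rows 232 windows stayed below 65%, in 136 domains of which the longest was 1600 kb. Of the 700 members, 115 kept fewer than 300 rows and were not judged. The class with most all-zero rows held 114 of these 115. Of the 232, 155 held 5% or more copied rows. Without every exact 0 of each library, which also removes truly unmethylated CpGs, 12 windows stayed below. Of these 12, 10 were in the class under 5%. The rule could then judge 18153 windows, against 18301 before. Among the 12 were windows of Tfap2b, Cps1, the Hoxd cluster, the fibrinogen genes, Rbm47, the Hoxb cluster and the Hoxc cluster (2 windows). Others were those of Ttc39c and the Pcdhb cluster, and 1 on chromosome 16 (3200001 to 3300000) without a gene.

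Just inside the threshold lay windows with Gm6650 (chromosome 5, 64.967%), 5 olfactory receptor genes (chromosome 10, 64.969%) and 3 without a protein-coding gene on chromosomes 16, 4 and 12 (64.974%, 64.980% and 64.986%). Just outside lay 3 without a gene on chromosomes 12, 2 and 12 (65.007%, 65.011% and 65.032%), 1 with Mup20 and Mup3 (chromosome 4, 65.015%) and 1 with Smug1 and Cbx5 (chromosome 15, 65.033%).

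Members held 927 of 14716 protein-coding genes (6.30%). All 28 Hox genes (patterning transcription factors), 30 of 57 clustered protocadherins (neuronal adhesion proteins) and 14 of 22 major urinary protein genes (pheromone carriers made in liver) lay in members. So did 260 of 792 genes whose symbol is a Gm or LOC number (32.8%), 67 of 701 olfactory receptors and 24 of 224 Zfp genes. Of the hepatocyte lists, 4 of 16 transcription factors, 4 of 41 secreted proteins and 3 of 78 enzymes and carriers did. None of 20 germline genes and none of 66 cytochrome P450 genes did, while 1 of 28 immune and 1 of 24 stellate and endothelial genes did. Of synapse and neuronal adhesion genes, 6 of 54 did (11.1%), and of ion channels and neurotransmitter receptors 2 of 46. Neighbouring genes share windows, so these genes are not independent. The Mup genes lay in windows with 5% or more all-zero rows, and 22 of the 28 Hox genes in windows under 5%. As a check of the tissue, gene spans of the 3 hepatocyte lists had median levels of 57.5% to 65.1%, and those of the other 5 lists 72.2% to 79.7%.

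The 92 windows with under 5% all-zero rows differed in make-up from the 17601 other windows, and in part from the members of the other classes. They were rich in CpGs, with a median of 2299.5 rows of any density against 1538 in the other windows. The middle class had 1255 and the class with most all-zero rows 1302. No protein-coding gene lay in 12 of the 92 (13.0%), against 36.8% of the other windows. In the middle class it was 42.5%, and in the class with most all-zero rows 22.1%. Of their 1 kb windows, 49.5% lay between 20% and 70% methylation, against 18.2% in the other windows. The middle class was near them, at 42.4%, or 47.5% against 49.4% without all-zero rows. Of the 92, 26 lay in domains of 2 or more windows and the rest stood alone. Chromosome 14 held the largest share of members (100 of 1217 windows, 8.22%) and chromosome 11 the smallest (24 of 1189, 2.02%).

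Averaged over all 700 windows, methylation was 45.4%, 45.6%, 46.6% and 45.7% in NASH and 46.2%, 45.1%, 46.7% and 46.4% in WT libraries. The groups overlapped, at 45.8% ± 0.56 and 46.1% ± 0.71. Relative to the other windows of the same library, members were at -32.0 points in NASH and -32.2 points in WT libraries, and relative to the windows directly beside the domains at -27.4 and -27.7 points. Single members differed by a median of -0.356 points (209 of 700 higher in NASH) and the other windows by -0.652 points (3835 of 17601 higher). Windows with most all-zero rows were at 7.47% ± 0.0707 in NASH and 7.64% ± 0.115 in WT libraries, and the middle class at 55.5% ± 0.743 and 56.2% ± 0.923. The class under 5% was at 61.8%, 61.6%, 63.1% and 62.5% in NASH and 61.1%, 59.9%, 61.5% and 61.1% in WT libraries. There every NASH library lay above every WT library, by 1.33 points on average. The median window of this class differed by 0.156 points, with 50 higher and 42 lower. Its 18 windows called higher differed by a mean of 6.86 points and the 74 not called by -0.0124 points. These 18 hold the window from Hoxb6 to Hoxb1, while the 18 domains called higher, described below, hold that of Gc in its place. The 9 windows with a listed hepatocyte gene, 8 of them in this class, were at 62.8%, 61.9%, 63.1% and 64.7% in NASH and 57.1%, 56.7%, 57.6% and 57.1% in WT libraries, a difference of 5.98 points without overlap. In the class under 5%, the 6 Hox windows differed by 1.85 points without overlap, or by 0.809 points with overlap in the 5 left after the window from Hoxb6 to Hoxb1, and the 78 windows with neither kind of gene by 0.782 points with overlap. No p is given for such means, because members and lists were chosen with results of these data known.

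Parts of the windows showed the same. CpGs with no other CpG within 35 bases, where partial methylation is known to be deepest, were at 44.6% ± 0.700 in NASH and 44.9% ± 0.900 in WT libraries. Rows within protein-coding genes were at 40.6% ± 0.486 and 40.5% ± 0.504, rows outside genes at 46.1% ± 0.583 and 46.5% ± 0.761, and the CpG-dense rows that the rule left out at 36.9% ± 0.470 and 36.9% ± 0.129. Domains of 2 or more windows were at 34.9% ± 0.387 and 35.3% ± 0.555, single windows at 60.2% ± 0.798 and 60.3% ± 0.938, and windows without a protein-coding gene at 52.0% ± 0.762 and 52.6% ± 0.949. In each of these 7 sets the NASH and WT libraries overlapped.

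Tested individually, 22 of the 398 domains differed between diets, 18 of them rising and 4 falling in NASH (limma, Benjamini-Hochberg adjusted p under 0.05 over 17999 units, which are the domains and every other window). Over all units 6.56% were called, 2.24% higher and 4.32% lower. By window, 32 of 700 were called, 20 higher and 12 lower, against 6.26% of all windows, 2.19% higher and 4.08% lower. With levels centred on each library the split was 27 higher and 7 lower (3.86% and 1% of members), against 6.47% and 3.75% of all windows. The share called higher was thus above that of all windows as deposited (2.86% against 2.19%) and below it after centring. Of the 72 domains under 5% all-zero rows 17 were called higher and 0 lower. Of 291 in the middle class 1 was higher and 1 lower, and of 35 with most all-zero rows 0 were higher and 3 lower. NASH and WT libraries did not overlap in 25 domains with higher and 14 with lower levels in NASH. Over all units 13.1% did not overlap, 4.86% with higher and 8.27% with lower levels. At an unadjusted p under 0.05 there were 42 domains (10.6%), against 22.2% of all units.

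**Figure D3:**
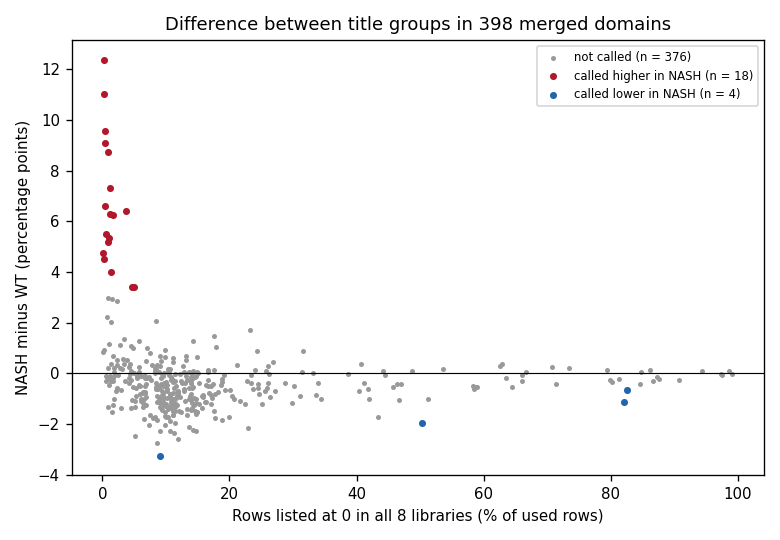
Each point is 1 of the 398 domains: the x axis is the percentage of rows listed at 0 in all 8 libraries and the y axis the NASH minus WT difference in percentage points. The 18 domains called higher lie at 5% or less all-zero rows with differences from 3.40 to 12.4 points, and the 4 called lower lie between 8.99% and 82.5%.

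All 18 domains with higher methylation in NASH were single windows, and 8 of them held a listed hepatocyte gene. Their WT levels ran from 50.3% to 62.1% and their rises from 3.40 to 12.4 points, with a median of 6.27. Members made up 2.21% of all units, and 10 of the 20 largest rises over all units were members, the largest of all among them. The other domain with a hepatocyte gene held Foxa2, a pioneer transcription factor of liver, at 62.9% ± 0.792 in NASH and 62.2% ± 0.958 in WT libraries and not called.

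**Figure D4:**
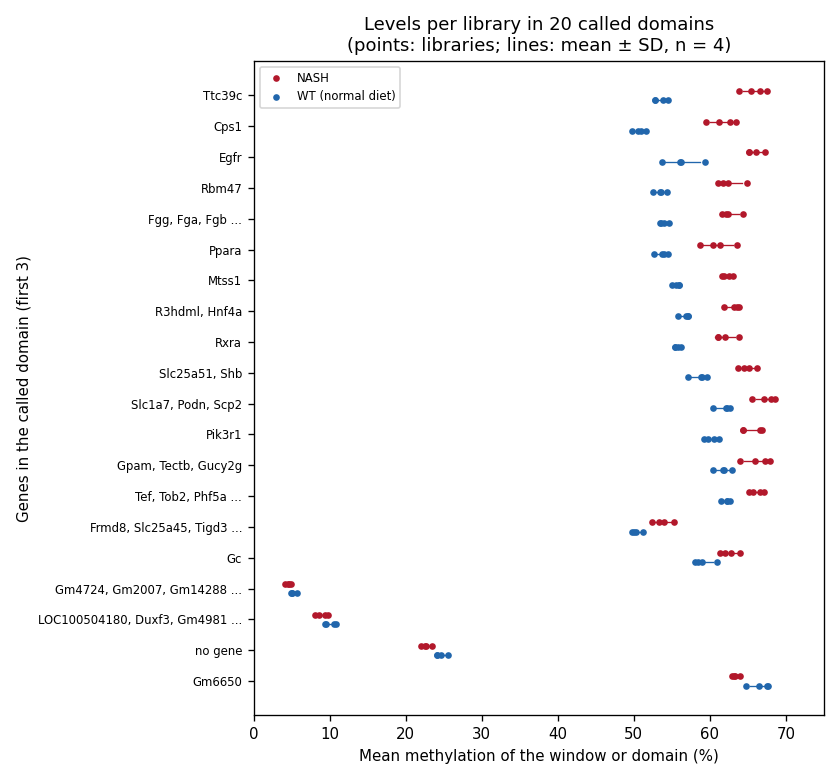
Mean methylation in percent of 20 of the 22 called domains in every library, with lines for the mean ± SD of 4 NASH and 4 WT libraries, ordered by difference. In the upper 16 domains all NASH points lie to the right of all WT points, and in the lowest 4 they lie to the left, with overlap in the domain of LOC100504180, Duxf3 and Gm4981.

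The window of Cps1, which starts the urea cycle (chromosome 1, 67100001 to 67200000), was at 62.7%, 61.2%, 59.5% and 63.5% in NASH and 49.7%, 50.9%, 51.7% and 50.5% in WT libraries. The groups lay far apart (11.02 points, SE 0.984, limma adjusted p = 1.38e-05). Gpam, which starts glycerolipid synthesis in mitochondria, rose from 61.8% ± 1.03 to 66.3% ± 1.76, and Scp2, a sterol carrier protein, with Slc1a7 and Podn, from 61.8% ± 1.0002 to 67.3% ± 1.30. Without every exact 0 these windows differed by 0.803 and 2.74 points and lost their calls (limma adjusted p = 0.583 and 0.0511).

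The window with Fgg, Fga and Fgb, the 3 chains of fibrinogen (chromosome 3, 83000001 to 83100000), was at 62.4%, 61.6%, 62.1% and 64.4% in NASH and 54.0%, 53.4%, 54.7% and 53.5% in WT libraries. Every NASH library lay above every WT library (8.74 points, SE 0.909, limma adjusted p = 9.80e-05). The window also holds Plrg1, a splicing factor gene. Gc, the vitamin D binding protein, rose from 59.1% ± 1.29 to 62.5% ± 1.15 (limma adjusted p = 0.0422), with 5% all-zero rows. It lost its call without NASH library 1, 2 or 4 or WT library 1 or 4 (limma adjusted p from 0.0681 to 0.198), and without every exact 0 (1.40 points, limma adjusted p = 0.334).

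The window of Ppara, the fatty acid receptor that switches on fat oxidation (chromosome 15, 85700001 to 85800000), was at 60.4%, 58.7%, 61.3% and 63.6% in NASH and 53.7%, 52.6%, 54.5% and 54.0% in WT libraries. The groups did not overlap (7.31 points, SE 1.03, limma adjusted p = 0.000862). Rxra, the partner with which such receptors bind DNA, rose from 55.7% ± 0.360 to 62.002% ± 1.26. Without every exact 0 the Rxra window differed by 1.71 points and lost its call (limma adjusted p = 0.243). Of Hnf4a, the RefSeq promoter with the lowest start is printed above. The Hnf4a window, which R3hdml shares, was at 63.2%, 61.8%, 63.9% and 63.6% in NASH and 57.1%, 56.9%, 57.1% and 55.8% in WT libraries. Here too the groups were apart (6.42 points, SE 0.884, limma adjusted p = 0.000761). Tef, a transcription factor of the daily clock, rose from 62.1% ± 0.474 to 66.2% ± 0.905 in a window that it shares with other genes, and likewise lost its call without every exact 0 (1.71 points, limma adjusted p = 0.255).

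The other windows called higher, like those of Gpam, Scp2 and Tef above, hold genes on none of the lists. The largest rise is at Ttc39c. The window within Ttc39c (chromosome 18, 12600001 to 12700000) was at 66.6%, 63.9%, 65.5% and 67.5% in NASH and 52.8%, 52.8%, 54.5% and 53.8% in WT libraries, with no overlap (12.4 points, SE 0.966, limma adjusted p = 3.16e-06). Egfr, the receptor of epidermal growth factor (chromosome 11, 16700001 to 16800000), was at 65.2%, 65.2%, 67.3% and 66.0% in NASH and 56.3%, 56.1%, 59.4% and 53.7% in WT libraries. Its groups were apart, with WT library 3 nearest to NASH (9.55 points, SE 1.10, limma adjusted p = 0.000191). Rbm47, an RNA-binding protein that takes part in editing of Apob mRNA (chromosome 5, 66000001 to 66100000), was at 61.8%, 62.5%, 61.1% and 64.9% in NASH and 53.6%, 52.5%, 54.3% and 53.5% in WT libraries. No library of either group crossed over (9.09 points, SE 0.971, limma adjusted p = 0.000101).

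Smaller rises among these windows were 6.61 points at Mtss1, which links membranes and actin, and 6.26 points at Shb, an adaptor of receptor kinases, with Slc25a51, a mitochondrial NAD carrier. Pik3r1, the regulatory subunit of phosphoinositide 3-kinase, rose by 5.36 points, and a window with Frmd8, Slc25a45, Tigd3 and Dpf2 by 3.41 points. Without every exact 0 the windows of Shb, Pik3r1 and Frmd8 differed by 1.78, 2.32 and -0.0229 points and lost their calls. In that setting 9 of the 18 rises kept their call, or 8 with 1 prior variance for all levels (limma without a trend). Without all-zero rows 16 kept it. The windows that lost it, those of Gc and Frmd8, kept their size, at 3.57 and 3.58 points (limma adjusted p = 0.0748 and 0.121). Without NASH library 4, 13 kept it.

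Because the 18 windows were picked as called higher, the direction of their parts is largely set by that choice, and the parts are given as a description. Rows inside gene spans were higher in NASH in 18 of 18 windows, by a median of 8.40 points, and rows outside genes in 15 of 17, by a median of 4.01 points. Of 360 bins of 5 kb in these windows, 295 were higher in NASH (81.9%). Of the directly neighbouring windows, which were not picked in this way, 17 of 36 were higher, with a median of -0.136 points. Among all windows outside the members 3835 of 17601 were higher, with a median of -0.652 points. The next window of Egfr, above 65% and so not a member, differed by 9.76 points. In the Egfr window gene rows rose from 43.8% to 59.4%, while rows outside were at 71.2% and 73.6%. In the fibrinogen window 19 of 20 bins were higher, and the bin with the largest difference (83010001 to 83015000) was at 46.0% in NASH and 25.1% in WT libraries.

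**Figure D5:**
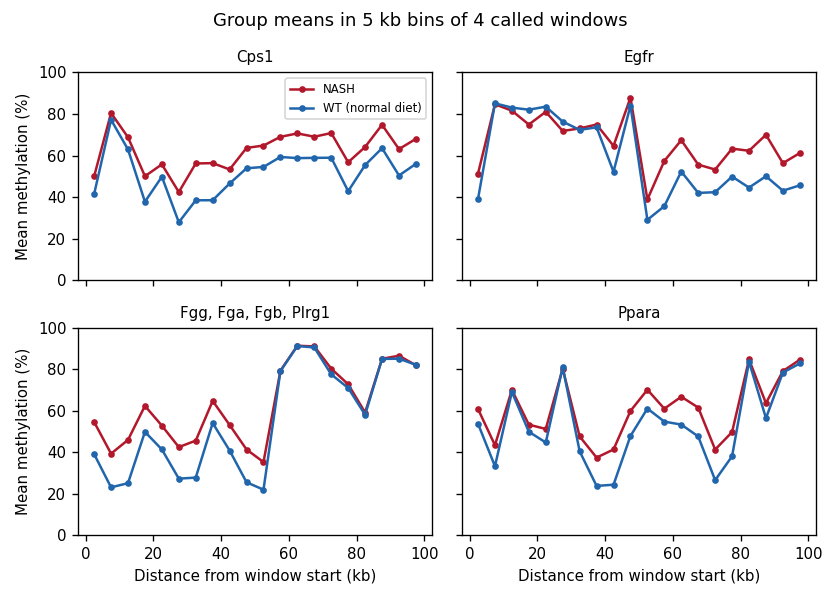
Mean methylation in percent of 4 NASH and 4 WT libraries in 5 kb bins along 4 windows called higher, by distance from the window start. NASH lies above WT in 20 of 20 bins at Cps1, 15 of 20 at Egfr, 19 of 20 at the fibrinogen genes and 19 of 20 at Ppara.

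The Hox clusters, whose genes set body position in the embryo, gave 7 member windows, 6 of them under 5% all-zero rows. The lowest, from Hoxc13 to Hoxc6 (chromosome 15, 102900001 to 103000000), was at 18.8% ± 0.814 in NASH and 17.99% ± 0.382 in WT libraries with 6.18% all-zero rows, and was not called. The window from Hoxb6 to Hoxb1 (chromosome 11, 96300001 to 96400000) was at 54.0%, 54.7%, 56.2% and 57.5% in NASH and 48.2%, 48.5%, 49.4% and 48.0% in WT libraries. Its groups were apart (7.08 points, SE 0.980, limma adjusted p = 0.00107 over windows), and it was the only Hox window called. The neighbouring windows of that cluster differed by 1.74 and -0.195 points (limma adjusted p = 0.307 and 0.913). The Hoxd windows differed by -0.659 and 1.77 points and the Hoxc4 to Hoxc6 window by 1.39 points, none called. As a whole, the Hoxb domain of 300 kb was at 56.5% ± 0.956 in NASH and 53.6% ± 0.340 in WT libraries, and missed the call (2.87 points, limma adjusted p = 0.0519).

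Some other genes of developmental transcription factors lay in windows of the same class and are given as examples chosen after their values were seen. The Pax6 window (an eye and brain factor) was at 61.8%, 61.1%, 63.1% and 61.7% in NASH and 62.1%, 61.2%, 62.5% and 61.2% in WT libraries. The groups overlapped. The windows of En2 and Pax3 differed by -1.24 and 1.11 points and were not called. The 74 windows of the class that were not called, whatever their genes, differed by -2.92 to 2.98 points. The protocadherin windows of the Pcdha and Pcdhb clusters in this class differed by 0.153 and 0.159 points.

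The 4 domains with lower methylation in NASH all had more than 5% all-zero rows. The Gm6650 window (chromosome 5, 13800001 to 13900000) was at 64.0%, 62.9%, 63.3% and 63.1% in NASH and 67.7%, 64.7%, 67.5% and 66.5% in WT libraries. The groups were apart by a small gap, and the call (-3.25 points, SE 0.898, limma adjusted p = 0.0376) was lost in 6 of the 8 fits that left out 1 library. A window without a gene on chromosome 13 (22900001 to 23000000) was at 22.6%, 22.5%, 23.4% and 22.0% in NASH and 24.1%, 24.7%, 25.5% and 24.1% in WT libraries, with no overlap (-1.96 points, limma adjusted p = 0.00486).

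The remaining falls were smaller. A window with Duxf3, a double homeobox gene of the early embryo, and Gcc2, a Golgi protein gene (chromosome 10, 58200001 to 58300000), was at 9.75%, 8.04%, 8.63% and 9.34% in NASH and 10.8%, 9.42%, 9.56% and 10.6% in WT libraries. Those groups overlapped (-1.15 points, limma adjusted p = 0.0378). A domain of Gm genes and Zfp966 on chromosome 2 (175600001 to 176000000) differed by -0.669 points (limma adjusted p = 0.0148), at 4.52% ± 0.291 in NASH and 5.19% ± 0.344 in WT libraries. Without every exact 0 its direction turned, to 0.712 points. The limma test pools each domain's spread with a prior SD, taken from units at a like level. At the low levels of these domains that prior SD was small. It was 0.138 on chromosome 2, 0.187 on chromosome 10 and 0.445 on chromosome 13, against residual SDs of 0.319, 0.730 and 0.627. An alternative with 1 prior variance for all levels was chosen after the data were seen. Under it these 3 falls lost their call (limma adjusted p = 0.410, 0.272 and 0.0673), and Gm6650 kept it (0.0259). All 18 rises kept theirs under the same alternative. All-zero rows made up 8.99%, 50.3%, 82.1% and 82.5% of the 4 domains, and without such rows 1 of the 4 calls remained, that at Gm6650. The other differences were then larger, at -3.94 points on chromosome 13, -6.41 points on chromosome 10 and -3.01 points on chromosome 2 (limma adjusted p = 0.115, 0.0703 and 0.276).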

How the data were processed

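Methylation was measured by bisulfite sequencing in 8 liver libraries. The authors deposited 1 table of percent methylation per cytosine of each CpG, with both strands as rows and no depth. The submitters' processing notes name FastQC and build mm10, and what aligned the reads and called methylation was not given in the sources used here. Columns named ND were taken as the libraries titled WT, as no other group remained. Of the table, 30729300 rows on 15 chromosomes were used, 326824 rows on 85 contigs served only to find copies, and 12.3% to 13.1% of rows per library were 0. Each CpG of the RefSeq promoters was listed 1 base above its RefSeq position (290329 of 290329).

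A window's level was the unweighted mean of its used rows. Windows and domains were compared with limma 3.58.1 on these levels, with a mean-dependent prior variance and Benjamini-Hochberg adjustment over all units, at 0.05. The limma step was tested on simulated levels of 100 kb windows, with noise drawn independently for each window and library. Shifts of a whole library were not simulated there. Software was Python 3.11.15 with pandas 2.3.3 and numpy 2.4.6, and R 4.3.3. Members, gene lists and the rule for named regions (the 10 widest domains, the 3 lowest, the 6 largest called differences without overlap in each direction, and listed genes) were chosen with earlier results of these data known. Other named genes were chosen after their values were seen. The planned permutation tests of means over members are not given for that reason. Same-numbered libraries correlated at -0.134, 0.149, 0.401 and 0.0211 in their deviations from the group means, so the numbers were not taken as pairs. Alternatives changed thresholds, filters, zeros, scale, library sets and block. Results for some genes, among them 2 called domains, are not reported here.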

Additional observations from a re-analysis of the deposited data

Results flagged for a closer look

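Over 106 groups of 4 libraries looked at, 5 held a library whose gap to the nearest other exceeded Dixon's 95% critical value. Chance gives about 1 in 20 groups. Over rows within genes in members, WT library 2 was lowest, at 39.8%. Over the 232 windows still below 65% without all-zero rows, NASH library 3 was highest, at 58.2%. NASH library 2 was highest in the chromosome 4 domain from 121700001, at 18.1%. WT library 2 was lowest in the chromosome 14 domain from 6000001, at 50.98%, and WT library 4 in the Hnf4a window, at 55.8%.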

How the results depend on the processing

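The table gives no depth, so single rows carry no precision, and an exact 0 cannot be told from a missing value. Copies on chromosomes not analysed here were not counted. Alternatives with all-zero rows left out, without windows rich in them, or fitting domains without the variance trend were chosen after seeing the data.

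With a threshold of 60% there were 20 called windows (10 higher) and 14 called domains (10 higher), and with 70% there were 77 windows (65 higher) and 60 domains (57 higher). The hepatocyte-gene windows then differed by 7.96 and 3.70 points. With rows of all densities 131 windows were called (114 higher) and members minus other windows differed by 0.488 points. With rows in 1 kb windows of fewer than 20 rows it was 20 windows (3 lower). Without every exact 0, 84 windows (60 lower) and 38 domains (26 lower) were called, against 2739 of 18255 windows (2639 lower) and 2916 of 17997 units (2818 lower) overall. The hepatocyte-gene windows differed by 3.21 points and CpG-dense rows by -0.416. That fit held residual SDs fully to the trend (at Cps1 0.792 against a residual SD of 1.26), and without the trend 10 domains (8 higher, 2 lower) were called. The chromosome 2 domain with Zfp966 turned to 0.712 points and the Frmd8 window to -0.0229 points with every exact 0 left out, with or without the trend. Without all-zero rows 2 domains were lower, members minus other windows differed by 0.0315 points and CpG-dense rows by -0.428. Without windows of 5% or more all-zero rows, the mean of members, members minus other windows and isolated CpGs differed by 1.33, 1.88 and 1.18 points. Windows called lower were 7 with starts shifted by 50 kb, 6 on a logit scale, 7 with centred libraries and 5 without the variance trend, and domains called lower were 1 without it. The cause of these shifts was not tested.

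With same-numbered libraries as a replicate block, 51 windows (26 lower) and 37 domains (15 lower) were called, 7.29% and 9.30% of members against 15.9% of all windows and 17.1% of all units, and all 22 called domains kept their call. With 1 library left out, 13 to 51 windows were called (13 to 22 higher, 0 to 29 lower) and 14 to 41 domains (13 to 21 higher, 1 to 20 lower). Over all windows the count called moved from 207 without NASH library 4 to 3562 without NASH library 3 (1.13% to 19.5%), and was 2953 without WT library 2. Called windows numbered 13 without NASH library 4, 16 without WT library 1, 51 without WT library 2, and 21 without WT library 3 or 4. Called domains numbered 14 without NASH library 4 and 41 without WT library 2, and lower ones 6 without NASH library 3 and 2 without NASH library 2 or WT library 1 or 4. Lower windows numbered 6 and 5 without NASH library 1 or 2, 17 without NASH library 3, 1 without WT library 1, 3 without WT library 3 and 5 without WT library 4.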
